A study of Mus musculus with 37 samples.

Results

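This account is of 10 sarcomere genes that mark the type of a skeletal muscle fibre, as measured in brown adipose tissue (BAT) of the BXD mouse strains. 5 of them, *Myh1*, *Myh2*, *Myh4*, *Tnnt3* and *Tnni2*, mark fast fibres, and 5, *Myh7*, *Myl2*, *Tnnt1*, *Tnni1* and *Tnnc1*, mark slow fibres. They were chosen by their symbol from 24657 gene symbols on the array, and each of the 10 has 1 probe set among the 41155 that are not array controls. The samples were male mice of 35 BXD strains, which are recombinant inbred strains derived from C57BL/6J and DBA/2J, and of both parental strains. All were fed chow (Harlan 2018) for life, aged 29 weeks, and fasted overnight from 6 pm to 9 am before sacrifice. RNA of about 5 mice was combined in equal amounts for each strain and run on 1 Affymetrix array, so no strain has a replicate. The spread between strains therefore holds differences between genotypes, between dissections and between arrays together. The question put to the data was whether fast and slow fibre genes follow each other over strains, and where they part.

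Muscle fibres contract through the sarcomere, in which thick filaments of myosin pull on thin filaments of actin. The myosin heavy chain sets the speed of a fibre: *Myh7* encodes the slow chain, *Myh2* the fast oxidative type IIa chain, *Myh1* the type IIx chain and *Myh4* the type IIb chain of the fastest, most glycolytic fibres. *Myl2* encodes the regulatory light chain of slow fibres. Troponin on the thin filament switches contraction on with calcium: its C subunit binds calcium (*Tnnc1* in slow fibres), its I subunit inhibits (*Tnni2* fast, *Tnni1* slow) and its T subunit binds tropomyosin (*Tnnt3* fast, *Tnnt1* slow). *Myh7*, *Myl2* and *Tnnc1* are also genes of the heart. Brown fat cells do not build sarcomeres, although they share a developmental lineage with skeletal muscle, and the interscapular depot lies against muscle of the back. In bulk RNA, fewer fibres and less RNA per fibre cannot be told apart.

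*Myh2*, *Myh1* and *Myh4* lie next to each other on chromosome 11, and the slow members lie apart, *Myh7* and *Tnnc1* on chromosome 14, *Tnni1* on chromosome 1, *Myl2* on chromosome 5 and *Tnnt1* on chromosome 7, where *Tnni2* and *Tnnt3* also lie. Promoter sequences were taken from RefSeq on GRCm38.p6, in which 8 of the 10 members have one; *Tnnt3* and *Tnni2* have none there. The 250 bases before the outermost start site of the 3 fast myosins are shown first, because these 3 genes lie side by side and encode the fast myosins among the members. Capitals mark the longest stretch that all 3 share.
Myh4 promoter, chr11:67237562-67237811, + strand: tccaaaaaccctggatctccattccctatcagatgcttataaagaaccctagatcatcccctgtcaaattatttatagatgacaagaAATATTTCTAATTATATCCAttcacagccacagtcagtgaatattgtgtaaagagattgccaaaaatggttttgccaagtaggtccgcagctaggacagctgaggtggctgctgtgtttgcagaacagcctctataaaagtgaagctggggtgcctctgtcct
Myh1 promoter, chr11:67199852-67200101, + strand: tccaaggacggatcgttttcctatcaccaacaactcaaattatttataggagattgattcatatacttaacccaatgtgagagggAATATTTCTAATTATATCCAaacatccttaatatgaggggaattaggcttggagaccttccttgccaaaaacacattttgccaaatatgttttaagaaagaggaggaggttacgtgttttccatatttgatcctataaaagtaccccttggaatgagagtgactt
Myh2 promoter, chr11:67170777-67171026, + strand: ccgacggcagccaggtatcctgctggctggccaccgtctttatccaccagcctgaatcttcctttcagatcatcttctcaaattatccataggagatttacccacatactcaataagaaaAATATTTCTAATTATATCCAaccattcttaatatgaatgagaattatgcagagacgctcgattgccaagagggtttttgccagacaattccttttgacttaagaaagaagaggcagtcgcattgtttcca
The shared stretch is 20 bases long, AATATTTCTAATTATATCCA, and starts 163 bases before the start site in *Myh4*, 165 in *Myh1* and 130 in *Myh2*. It occurs on either strand in 3 of 27025 promoter windows of this length, those of these 3 genes. The next 3 windows belong to the slow genes *Myh7*, *Tnnc1* and *Tnni1*, the slow myosin and the slow troponin genes that passed a test at equal muscle index in the results that follow. Capitals mark each match to the E-box letters CANNTG, the core bound by the MyoD family of muscle regulators and by many other factors.
Myh7 promoter, chr14:54994627-54994876, - strand: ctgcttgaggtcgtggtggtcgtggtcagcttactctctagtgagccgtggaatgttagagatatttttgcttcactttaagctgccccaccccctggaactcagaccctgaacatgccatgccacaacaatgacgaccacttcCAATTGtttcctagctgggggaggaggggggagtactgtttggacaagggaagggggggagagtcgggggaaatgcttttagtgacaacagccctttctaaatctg
Tnnc1 promoter, chr14:31208062-31208311, + strand: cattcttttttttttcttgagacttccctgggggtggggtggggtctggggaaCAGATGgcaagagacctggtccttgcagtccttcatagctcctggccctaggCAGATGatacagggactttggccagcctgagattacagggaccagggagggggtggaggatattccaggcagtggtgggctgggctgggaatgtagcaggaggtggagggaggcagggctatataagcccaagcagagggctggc
Tnni1 promoter, chr1:135799171-135799420, + strand: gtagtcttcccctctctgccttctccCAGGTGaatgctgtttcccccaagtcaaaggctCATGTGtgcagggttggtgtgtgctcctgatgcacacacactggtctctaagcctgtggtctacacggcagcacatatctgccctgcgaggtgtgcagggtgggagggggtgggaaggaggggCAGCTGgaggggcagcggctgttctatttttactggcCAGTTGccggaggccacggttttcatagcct
No stretch over 12 bases was shared by any 2 of these slow windows or by a fast and a slow one. E-box letters stood in 6 of the 8 member windows, against 66.1% of all windows, and in neither *Myh1* nor *Myh2*. A match to the MEF2 consensus, searched on both strands, stood in the windows of *Myh1* and *Myh4* and in 3.03% of all windows, and one to the CArG consensus in that of *Myh4* and in 1.41%. The letters TATAAA, on either strand, occurred in *Myh1*, *Myh4* and *Tnnt1* and in 13% of all windows; 1 match each in *Myh1* and *Myh4* lies inside the MEF2 match. These are matches of letters only.

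The arrays carried genes that define brown fat, and the fibre genes varied beside them. Of 8 brown fat genes *Ucp1*, the uncoupling protein, had the highest mean over the 35 strains, 15.4 units, and *Prdm16* the lowest, 9.44. Values are in rescaled array units: each array had been put on a common scale with mean 8 and SD 2, and the log base before that step is not given in the sources used here, so differences are given in units and not as folds. Probe sets of olfactory receptors, which fat does not use, served as background, and the line drawn was their 95th percentile, 7.94, above a median of 6.00. The liver markers were far higher in BXD70 than in any other strain, with a list mean of 12.6 against a median of 7.24, so each count was also made without BXD70.

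All 10 fibre genes had means above background, and 9 of them varied far more between strains than most of the array. The SD over strains ranged from 0.87 to 1.07 units for the fast genes and from 0.41 to 1.05 for the slow genes, against a median SD of 0.21 and a 95th percentile of 0.52 over all probe sets. *Myl2* was the exception, with an SD that 11.6% of probe sets exceed. Every strain lay above background for 8 of the genes; for *Myh2* 34 of 35 did and for *Tnnt1* 33 of 35.

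Among the fast myosins, *Myh4*, the type IIb chain, ran from 10.77 in BXD65 through a median of 13.82 to 14.75 in BXD97 (mean 13.51 ± 0.89, SD, n = 35 strains). *Myh1*, the type IIx chain, ran from 9.07 through 12.19 to 13.34 (11.88 ± 1.07), and *Myh2*, the type IIa chain, from 7.42 through 10.69 to 11.77 (10.32 ± 1.05). The same 2 strains stood at the ends for all 3: BXD65 was lowest and BXD97 highest, and in BXD65 *Myh2* alone of the fast genes fell within the background. The fast troponins had these ends too. *Tnnt3*, which anchors the troponin complex to tropomyosin, ran from 10.57 through 13.45 to 14.30 (13.19 ± 0.87). *Tnni2*, the fast inhibitory subunit, ran from 9.33 through 11.86 to 12.96 (11.59 ± 0.88). BXD65 lay clear of the next strain for *Myh4*, at 10.77 against 11.89 in BXD81, and for *Myh2*, at 7.42 against 8.30 in BXD95.

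The slow genes spread over the strains without common ends. *Myh7*, the slow myosin, ran from 8.41 in BXD65 through a median of 10.86 to 12.05 in BXD83 (10.59 ± 1.05). *Myl2*, its regulatory light chain, ran from 8.28 in BXD90 through 9.25 to 9.93 in BXD97 (9.27 ± 0.41), the narrowest range of the 10 at 1.65 units. Of the 5 slow genes, *Myh7* alone was lowest in BXD65. *Tnnt1* ran from 7.88 in BXD89 through 9.28 to 10.39 in BXD83 (9.19 ± 0.63). *Tnni1* ran from 8.09 in BXD85 through 10.03 to 11.04 in BXD56 (9.82 ± 0.73), and *Tnnc1* from 8.47 in BXD85 through 10.39 to 11.66 in BXD83 (10.24 ± 0.92). BXD83 thus held the highest value of *Myh7*, *Tnnt1* and *Tnnc1*, and second place for *Myh1*, *Tnnt3* and *Tnni2*.

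**Figure D1:**
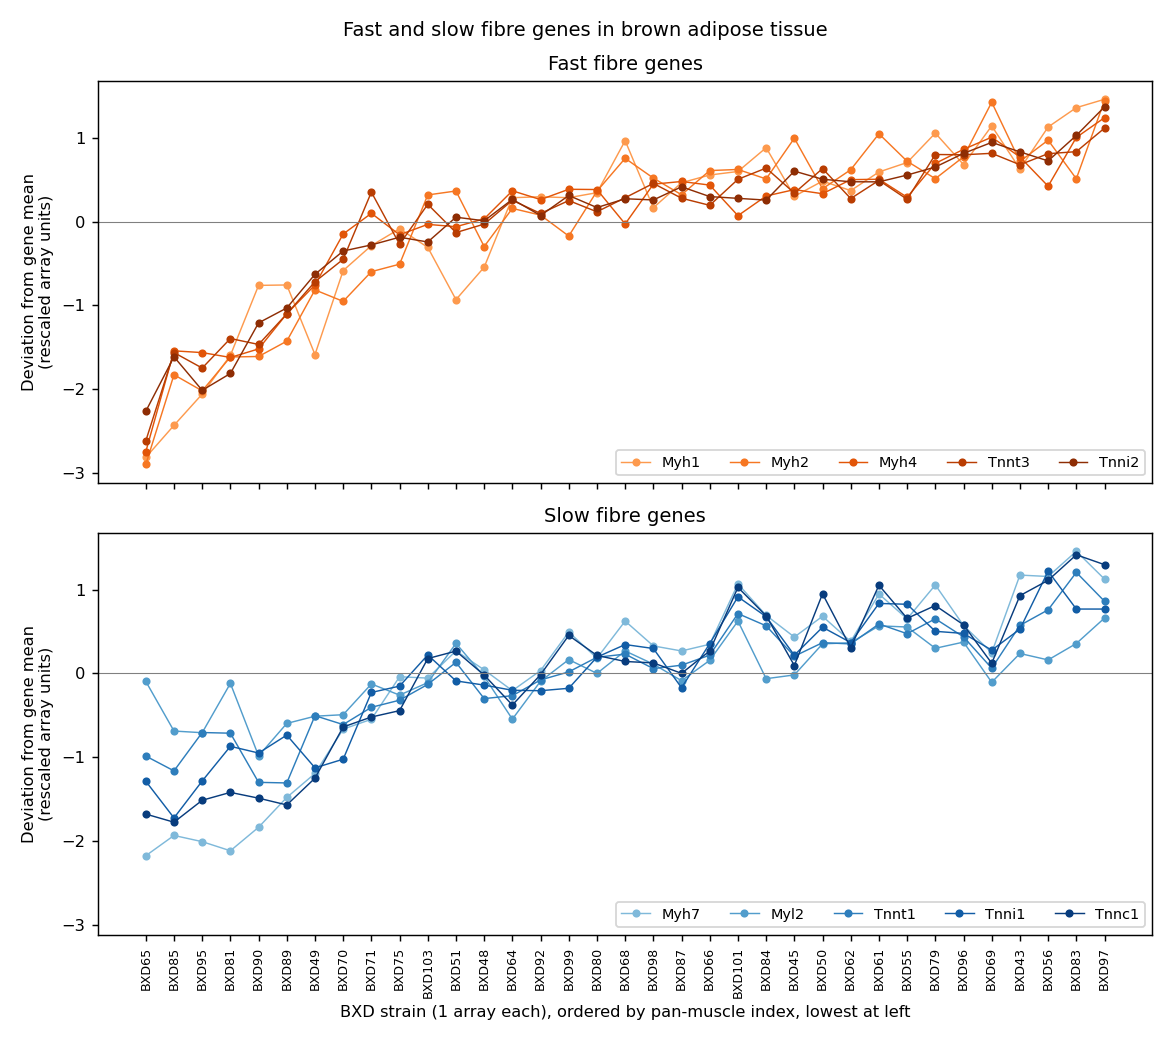
Each point is 1 gene in 1 BXD strain (1 array each), as the deviation from that gene's mean in rescaled array units, with strains ordered along the x axis by a pan-muscle index, lowest at left; the upper panel holds the 5 fast and the lower the 5 slow genes. Both groups climb from left to right, the fast genes from -2.67 units on average in BXD65 to 1.33 in BXD97, while *Myl2* in the lower panel stays flattest.

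Taken as the mean deviation of each group from its own average, the fast genes ranged from -2.67 units in BXD65 to 1.33 in BXD97, and the slow genes from -1.46 in BXD85 to 1.04 in BXD83. The groups lay on the same side of their averages in 31 of 35 strains, with r = 0.92 between them. This r and the differences that follow are descriptions with no test, since the genes were grouped with results of these arrays known. Fast minus slow lay within 0.5 units of 0 in 30 strains. It was most negative in BXD65, at -1.42, where the fast genes were far down and *Myl2*, at 9.17, stood close to its mean. The other slow genes lay near the background line of 7.94 in BXD65, from 8.20 (*Tnnt1*) to 8.57 (*Tnnc1*). Whether this floor held up the slow genes in strains low in both groups was not tested. Fast minus slow was most positive in BXD69, at 0.95, where *Myh4* stood at 14.52 and *Myh7* at 10.84. BXD64 followed at 0.58. After BXD65 the lowest values were -0.64 in BXD95 and -0.56 in BXD81, both strains low in both groups. BXD101, at -0.46, stood above average in both groups, with *Myh4* at 13.58 and *Myh7* at 11.66. Without BXD65 the r between the group means was 0.93.

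**Figure D2:**
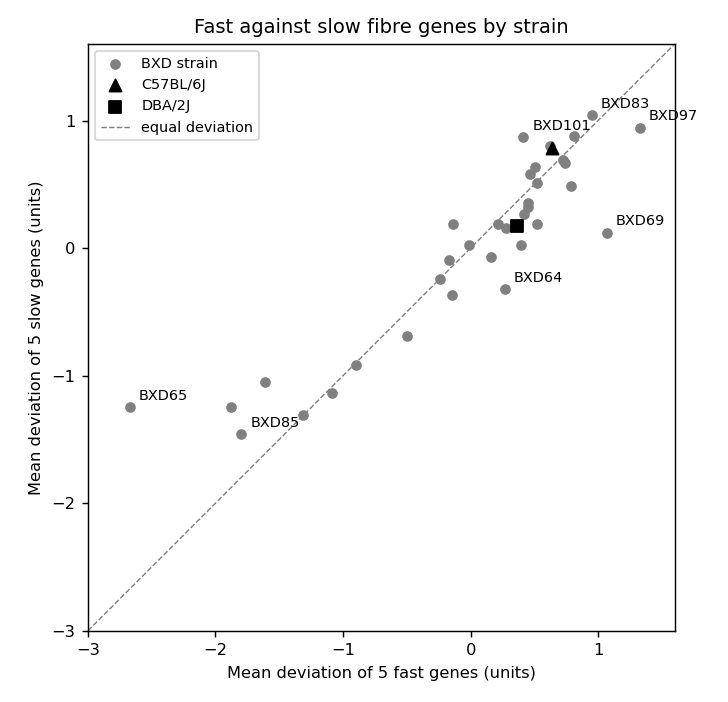
Mean deviation of the 5 slow genes (y axis) against that of the 5 fast genes (x axis), both in rescaled array units; grey points are 35 BXD strains, the triangle is C57BL/6J, the square DBA/2J, and the dashed line marks equal deviation. Most strains lie along the line (r = 0.92), BXD65 lies above it at -2.67 and -1.24, and BXD69 below it at 1.07 and 0.12.

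All 45 pairs of fibre genes had a positive r over the strains. Fast pairs had r from 0.91 to 0.97 with a median of 0.94, slow pairs from 0.80 to 0.98 with a median of 0.92, and pairs of 1 fast and 1 slow gene from 0.63 to 0.95 with a median of 0.87. The closest pair was *Myh7* with *Tnnc1* (r = 0.98) and the loosest *Myh4* with *Myl2* (r = 0.63). Type IIb and slow myosin, *Myh4* and *Myh7*, had r = 0.91 (95% interval from 0.83 to 0.95) and rho = 0.76. *Myh4* with *Myh1* gave r = 0.91 (from 0.83 to 0.96) and rho = 0.82, and *Myh4* with *Myh2* r = 0.93 (from 0.87 to 0.97) and rho = 0.80. The intervals of the slow myosin and of both fast neighbours overlap. These values share *Myh4* and the same arrays, so overlap is no test of a difference. The fast and slow forms of a troponin subunit also moved together, *Tnni2* with *Tnni1* at r = 0.87 (rho = 0.81) and *Tnnt3* with *Tnnt1* at r = 0.86 (rho = 0.86). Within the slow genes, *Myh7* with *Tnni1* gave r = 0.93 (rho = 0.93) and *Myh7* with *Myl2* r = 0.80 (rho = 0.85). These r and rho are descriptions over the same 35 arrays, with no test. With the 2 strains farthest from the median of the first gene left out, r lay between 0.84 (*Tnni2* with *Tnni1*) and 0.93 (*Myh7* with *Tnni1*).

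A pan-muscle index was then used to ask how much of this was the amount of muscle RNA in a strain. The index is the mean of 13 genes that fast and slow fibres use alike, among them *Acta1* (skeletal actin), *Ckm* (creatine kinase), *Ttn* (titin) and *Neb* (nebulin), and none of them a member. It ran from 9.25 in BXD65 to 12.52 in BXD97, as a continuum whose largest step between neighbouring strains was 0.46 units; 12 of its genes lay above background, and *Cav3* did not. All 10 members rose with it (limma, Benjamini-Hochberg adjusted p under 0.05), where 1.6% of 41139 probe sets did so. Of the 12 further fast genes on a fixed list, 12 rose with the index too, and of 12 further slow or oxidative genes 10 did.

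The fast members had slopes near or above 1 unit per unit of index: 1.25 ± 0.07 (SE) for *Myh1*, 1.25 ± 0.06 for *Myh2*, 1.07 ± 0.04 for *Myh4*, 1.05 ± 0.04 for *Tnnt3* and 1.08 ± 0.03 for *Tnni2*. The slow slopes were spread wider. *Myh7* had a slope of 1.25 ± 0.06 and *Tnnc1* of 1.07 ± 0.07, as steep as the fast genes, whereas *Tnni1* had 0.82 ± 0.06, *Tnnt1* 0.70 ± 0.06 and *Myl2* 0.37 ± 0.06. The limma adjusted p was largest for *Myl2*, at 3.59e-05. The index held 97.8% of the variance of *Tnni2* over strains, from 89.6% to 95.1% for the other fast genes, 93.3% for *Myh7* and 53.1% for *Myl2*. Slopes compare how far probe sets moved, and probe sets can differ in how they respond to the same amount of RNA. *Tnnt1* and *Tnni1* also came near the background line in strains low in the index, at 8.02 and 8.09 in BXD85. Whether this flattened their slopes was not tested.

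Few genes of heart, of other muscle or of the fat itself passed against the index. 0 of 8 heart genes passed the limma threshold, with 1 at an unadjusted p under 0.05, beside 11.2% of all probe sets. The heart list mean stayed between 7.66 and 8.10 over the strains. The atrial and ventricular genes *Myh6*, at 7.30, and *Myl7*, at 6.60, had means within the background, while the rest of the list had means up to 8.33 (*Ryr2*). The 3 heart genes with the largest slopes were *Tnnt2* (0.13 ± 0.05), *Myl4* (0.09 ± 0.05) and *Myh6* (0.05 ± 0.06). The neighbours of the fast myosins that serve embryonic and newborn muscle, *Myh3* and *Myh8*, had means within the background, that of *Myh3* at 6.43. *Myh8* rose slightly with the index (slope 0.17 ± 0.04, limma adjusted p = 0.0135), the 1 of 6 genes of embryonic and regenerating muscle to do so, and *Myh3* and *Actc1* had slopes of 0.12 ± 0.05 and 0.11 ± 0.05. Whether probes of *Myh8* also bind transcripts of the adult fast myosins was not tested. In smooth muscle 1 of 6 genes rose, *Lmod1* (0.16 ± 0.04, limma adjusted p = 0.0270), and *Tagln* and *Smtn* had slopes of -0.0039 ± 0.042 and -0.0089 ± 0.040.

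Brown and white fat genes did not pass either. Of 8 brown fat genes 0 passed the limma threshold, with 2 at an unadjusted p under 0.05, beside 11.2% of all probe sets. Those 2 were *Ucp1*, at -0.10 ± 0.05 (limma adjusted p = 0.370), and *Ppargc1a*, the coactivator that drives mitochondrial genes, at -0.18 ± 0.07 (limma adjusted p = 0.275). All 8 slopes were below 0, from -0.26 (*Dio2*) to -0.03 (*Cidea*), with *Cox8b* at -0.03 and *Cox7a1* at -0.05. Over all probe sets 47.1% of slopes were above 0. Of 6 white fat genes 0 passed, and 0 at an unadjusted p under 0.05, with *Retn* (0.27 ± 0.13), *Mest* (0.20 ± 0.17) and *Lep* (0.18 ± 0.23) highest. Liver and blood genes, 6 and 2 in number, likewise gave 0 at the limma threshold and 0 at an unadjusted p under 0.05. The highest slopes there, by signed value, were those of *Apob* (-0.04 ± 0.17), *Fgg* (-0.09 ± 0.17) and *Apoa1* (-0.12 ± 0.15) in liver and of *Hbb-b1* (0.08 ± 0.09) and *Alas2* (-0.02 ± 0.08) in blood. The liver genes *Serpina1c* (-0.40 ± 0.28) and *Alb* (-0.25 ± 0.31) lay lowest.

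**Figure D3:**
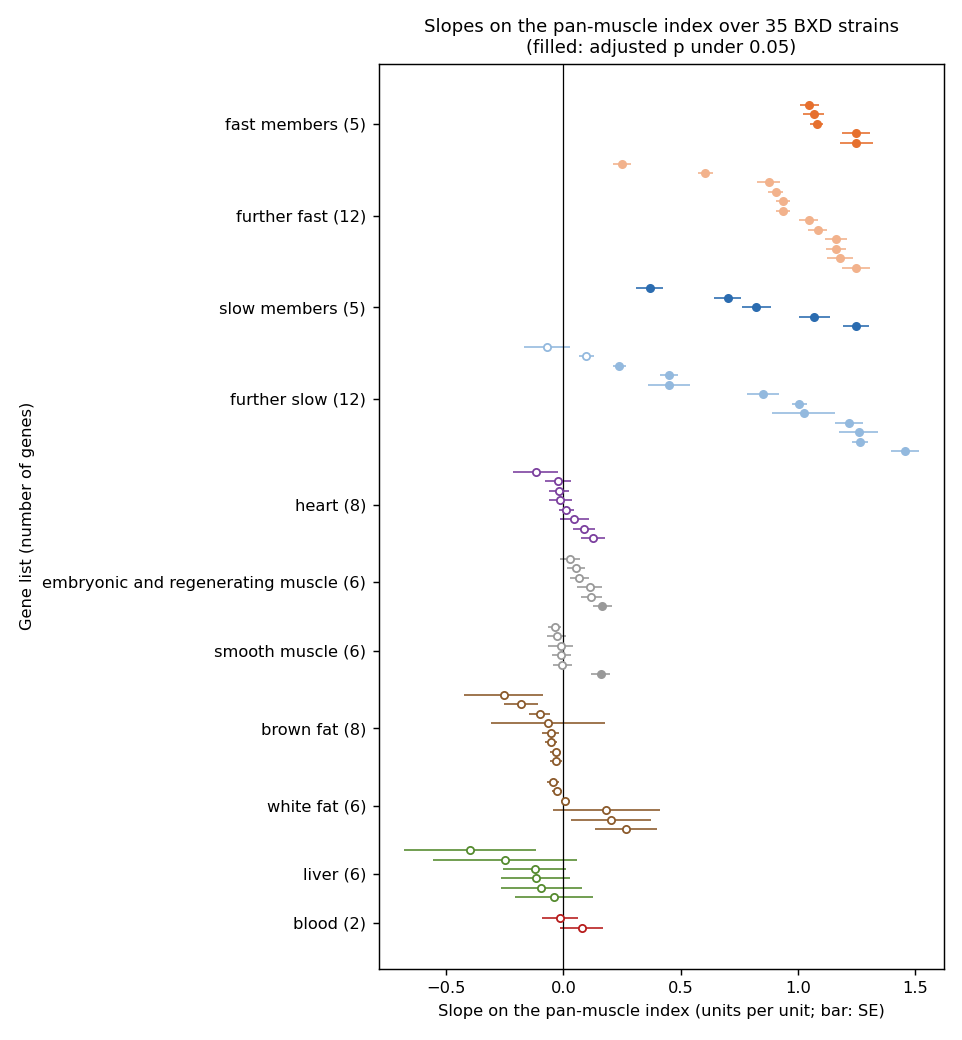
Slope of each gene on the pan-muscle index over 35 BXD strains (x axis, rescaled units per unit, bars are SE), grouped by gene list; filled points passed an adjusted p of 0.05 in limma. The fast members sit between 1.05 and 1.25 and the slow members between 0.37 and 1.25. The heart, fat, liver and blood genes lie from -0.40 (*Serpina1c*) to 0.27 (*Retn*), none of them filled.

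With a single myosin as the measure, all 9 other members rose with *Myh4* in limma, against 1.33% of 41154 probe sets, and all 9 rose with *Myh7*, against 1.66%. Per unit of *Myh4*, *Myh7* rose by 1.07 ± 0.08 units and *Myl2* by 0.29 ± 0.06. Per unit of *Myh7*, *Myh4* rose by 0.77 ± 0.06 units and *Tnnc1* by 0.86 ± 0.03. The genes nearest to each myosin by correlation were compared next. The 5 genes outside the members closest to *Myh4* were *Pygm* (r = 0.99), *Atp2a1* (0.98), *Ttn* (0.98), *Ryr1* (0.98) and *Myot* (0.98); *Pygm* encodes muscle glycogen phosphorylase and *Atp2a1* the calcium pump of fast fibres. Those closest to *Myh2* were *Mb*, myoglobin (0.97), *Cacna1s* (0.96), *Actn2* (0.96), *Tpm2* (0.96) and *Ckmt2*, the mitochondrial creatine kinase (0.96). Those closest to *Myh7* were *Myoz2* (0.98), a partner of calcineurin in slow fibres, *3425401B19Rik* (0.97), *Ldb3* (0.97), *Lmod2* (0.97) and *Alpk3* (0.97). Those closest to *Myh1* were *Mybpc1* (0.96), which is on the slow list, *Xirp2* (0.95), *Tmod4* (0.95), *Myom2* (0.95) and *Ttn* (0.95). *Ttn*, *Myot*, *Actn2* and *Ldb3* are genes of the index itself. All these values are over the same 35 strains and are descriptions with no test.

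Once the index was regressed out of every gene, the slow pairs kept a higher r than the fast pairs. The index itself had r = 0.99 with the mean of the fast genes and 0.94 with that of the slow genes. Whether this closeness to the fast genes lowered the fast r was not tested. *Myh4* kept a residual SD of 0.20 units, beside a median SD of 0.21 in the deposited values of all probe sets. All 10 slow pairs kept r above 0, from 0.47 (*Myh7* with *Tnni1*) to 0.78 (*Tnnt1* with *Tnnc1*), with a median of 0.62. The 10 fast pairs ranged from -0.11 (*Myh1* with *Myh4*) to 0.49 (*Myh4* with *Tnnt3*), with a median of 0.06, and 4 were below 0. Of 25 fast with slow pairs 22 were below 0, with a median of -0.16; the lowest was *Myh4* with *Tnni1* at -0.74, and *Tnni2* with *Tnni1* followed at -0.60. *Myh1* and *Myh2* took little part, with r between -0.25 and 0.26 against the slow genes. *Tnnt3* was also weak, from -0.21 to -0.07. Every fast with slow value below -0.25 was one of *Myh4* or *Tnni2*. The strains farthest out were BXD101, where the slow genes lay 0.59 units above the line, BXD65 at 0.55 and BXD69 at -0.52. In BXD65 most slow genes lay near background. These are residuals around 1 shared index, given with no test. The sign of the fast with slow value rests on that index: with *Acta1* alone in its place the median of those pairs was 0.20, while the slow median was 0.70.

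**Figure D4:**
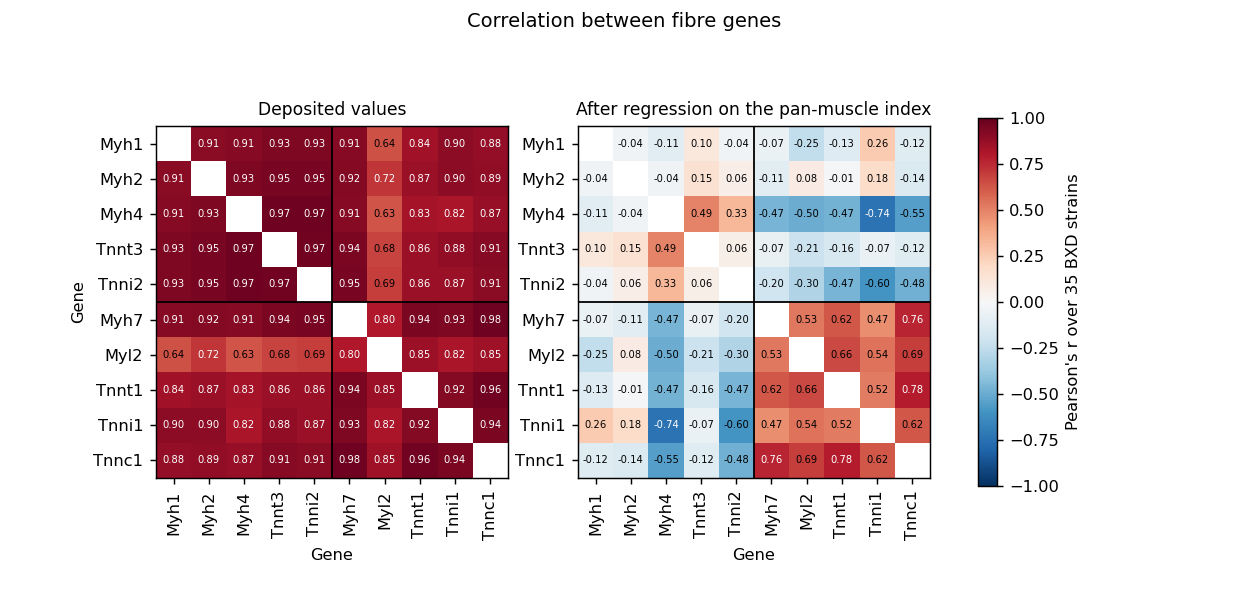
Pearson's r over 35 BXD strains for every pair of the 10 genes, in the deposited values (left) and after regression on the pan-muscle index (right); red is positive, blue negative, and black lines part fast from slow genes. All cells are red at left, while at right the slow block keeps r from 0.47 to 0.78 and the row of *Myh4* reaches -0.74 against *Tnni1*.

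The same was tested gene by gene. At equal index, *Tnnc1*, the calcium-binding troponin subunit of slow fibres, rose with *Myh7* by 0.88 ± 0.13 units per unit (limma adjusted p = 0.00297). It was the 1 probe set of 41138 to rise, 0.00243%, so 1 of 9 members passed. The other slow members also had coefficients above 0 but missed the threshold, *Tnnt1* at 0.62 ± 0.14 (limma adjusted p = 0.468), *Myl2* at 0.54 ± 0.15 and *Tnni1* at 0.52 ± 0.17. All 5 fast members had coefficients below 0, from -0.35 ± 0.12 for *Myh4* to -0.05 ± 0.12 for *Tnnt3*, and none passed. The *Tnnc1* call was lost without BXD69 (limma adjusted p = 0.0713), without BXD101 (0.0535) and with ranks of the covariates (0.151). With *Acta1* alone as the index *Tnnc1* was called with *Tnnt1*, and 4 of the 5 fast coefficients turned above 0.

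The lists of further fibre genes, which hold no member, were read in the same way. Against *Myh7* at equal index, 12 of 12 further slow genes had coefficients above 0, with a median of 0.39, and 0 of 12 further fast genes did, with a median of -0.12, against 50.0% above 0 and a median of 0.00015 over all probe sets. None of these 24 passed the limma threshold; 7 slow and 1 fast gene had an unadjusted p under 0.05, where 4.58% of all probe sets did. The largest were *Sln* (1.01 ± 0.37), sarcolipin, a brake on the calcium pump, *Ankrd2* (0.81 ± 0.22), a stretch-responsive protein, and *Myl3* (0.77 ± 0.16), the essential light chain of slow fibres. Among the fast genes the highest by signed value were *Pfkm* (-0.04 ± 0.10), *Tnnc2* (-0.06 ± 0.09) and *Casq1* (-0.07 ± 0.18). *Mybpc2* lay lowest at -0.35 ± 0.16 and was the fast gene with an unadjusted p under 0.05. With *Acta1* alone or with ranks, 12 and 11 of the 12 fast coefficients turned above 0. With *Acta1* alone 4 of the 12 slow genes passed the limma threshold and 10 had an unadjusted p under 0.05. With ranks 0 slow genes passed and 6 had such a p. The 5 genes outside the members with the largest t against *Myh7* at equal index were *Myl3*, *Myoz2*, *Rpa2*, *Izumo4* and *Mir873*. All had a limma adjusted p of at least 0.321. *Izumo4*, at 7.11, and *Mir873*, at 4.58, had means within the background.

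Against *Myh4* at equal index 1 of 9 members passed, a slow one. *Tnni1*, the inhibitory subunit of slow troponin, fell by 1.08 ± 0.17 units per unit of *Myh4* (limma adjusted p = 0.00766). Among 41138 probe sets 2 fell, 0.00486%, the other being *Myom3*, an M-band protein of slower fibres, with a coefficient of -0.93 ± 0.13 (limma adjusted p = 0.000679), which is named because it passed. Across strains *Myom3* ran from 8.06 in BXD65 through 9.28 to 10.32 in BXD56, the strain in which *Tnni1* was also highest. The other 4 slow members had coefficients from -0.84 ± 0.22 (*Tnnc1*) to -0.62 ± 0.20 (*Myh7*) and missed the threshold. Each had an unadjusted p under 0.05, as did 6.57% of all probe sets. Of the fast members, *Tnnt3* stood at 0.46 ± 0.15, *Tnni2* at 0.21 ± 0.11, *Myh2* at -0.05 ± 0.24 and *Myh1* at -0.19 ± 0.28, none of them past it. The *Tnni1* call was lost without BXD56 (limma adjusted p = 0.0627), without the 2 strains farthest from the median of *Myh4* (0.116), with *Acta1* alone (0.725) and with ranks (0.825). That of *Myom3* was also lost with *Acta1* alone (limma adjusted p = 0.907) and with ranks (0.759). With *Acta1* alone *Tnnt1* moved from -0.63 to 0.0026.

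Of 12 further fast genes 9 had coefficients above 0 on *Myh4*, with a median of 0.24, and of 12 further slow genes 2 did, with a median of -0.42, where 47.4% of all probe sets were above 0. With *Acta1* alone 11 fast and 4 slow genes were above 0 and the slow median was -0.09, and with ranks 12 fast and 5 slow genes were. None passed the limma threshold, and 3 fast and 6 slow genes had an unadjusted p under 0.05, where 6.57% of all probe sets did. The highest fast genes were *Atp2a1* (0.49 ± 0.11), *Actn3* (0.41 ± 0.14), the alpha-actinin of fast fibres, and *Mybpc2* (0.39 ± 0.21); the highest slow ones were *Mybpc1* (0.13 ± 0.14), *Mb* (0.03 ± 0.13) and *Tpm3* (-0.0023 ± 0.39). *Sln* lay lowest at -1.93 ± 0.43, and *Csrp3*, at -0.92 ± 0.18, came closest to the threshold on the slow list (limma adjusted p = 0.0705). Outside the members and in order of t, *Pygm* (0.45 ± 0.09), *Atp2a1*, *Sgk1* (0.89 ± 0.19), *Olfr1373* (0.61 ± 0.15) and *Vmn1r73* (0.79 ± 0.19) came first, none of them past the threshold. *Vmn1r73* had a mean within the background, at 5.05, and *Olfr1373*, at 8.64, is an olfactory receptor, the class that served as background. As for heart at equal index, 0 of 8 genes passed against either myosin, with 0 at an unadjusted p under 0.05 against *Myh7* and 3 against *Myh4*, of which *Myl4* and *Tnnt2* lay below 0 and *Ryr2* above.

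Genes of liver and blood also had coefficients on *Myh4* at equal index, with medians above that of the further fast genes. Of 6 liver genes 6 lay above 0, with a median of 1.28 and 1, *Apob* (1.37 ± 0.62), at an unadjusted p under 0.05. Without BXD70, the strain of the high liver values, 4 of 6 did, with a median of 0.24. Both blood genes had an unadjusted p under 0.05, *Alas2* at 0.78 ± 0.28 (limma adjusted p = 0.689) and *Hbb-b1* at 0.71 ± 0.34 (limma adjusted p = 0.752). *Hbb-b1* had a mean within the background, at 7.88, and *Alas2*, at 8.04, lay just above the line of 7.94. Of the 6 liver genes, 3 had means within the background, among them *Apob* at 7.63. Against *Myh7* 0 of 6 liver and 0 of 2 blood genes lay above 0, with medians of -0.41 and -0.43. None of these genes passed the limma threshold, and their part in the fibre gene values was not tested.

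**Figure D5:**
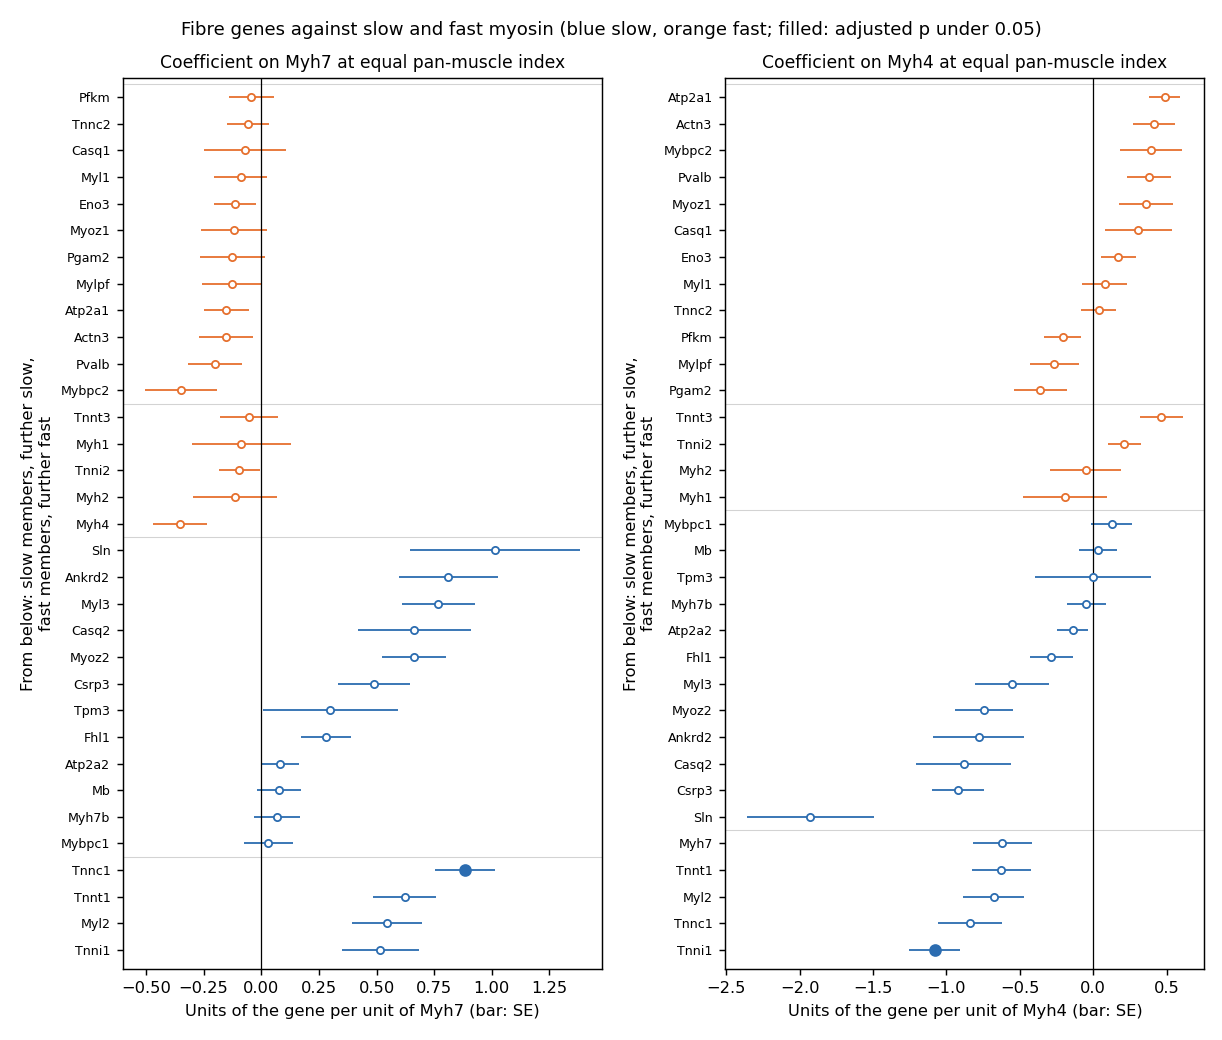
Coefficients on *Myh7* (left) and on *Myh4* (right) at equal pan-muscle index over 35 BXD strains, in rescaled units per unit with SE bars; blue are slow and orange fast genes, members and further lists apart, and filled points passed an adjusted p of 0.05 in limma. *Tnnc1* at 0.88 (left) and *Tnni1* at -1.08 (right) are the filled points, and the slow genes lie right of 0 in the left panel and mostly left of 0 in the right panel.

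For *Myh2*, the oxidative fast myosin, at equal index 0 of 9 members passed against it in limma, and 0 had an unadjusted p under 0.05; coefficients ran from -0.16 ± 0.18 (*Tnnc1*) to 0.19 ± 0.17 (*Tnni1*). The further lists were split, with 7 of 12 fast and 6 of 12 slow genes above 0, where 52.9% of all probe sets were. The highest were *Casq2* (0.61 ± 0.23), *Mb* (0.27 ± 0.08) and *Ankrd2* (0.11 ± 0.24) of the slow list and *Pgam2* (0.18 ± 0.13), *Mylpf* (0.12 ± 0.12) and *Tnnc2* (0.08 ± 0.08) of the fast list, none past the threshold. Over all 41138 probe sets 2 passed in either direction, 0.00486%, named here because they passed: *Trim63*, the ubiquitin ligase of muscle wasting also known as MuRF1, fell by 1.15 ± 0.19 units per unit (limma adjusted p = 0.0347), and *Jub*, a LIM domain protein, rose by 0.58 ± 0.10 (limma adjusted p = 0.0420). *Trim63* ran from 8.28 in BXD95 through 9.45 to 11.33 in BXD83, the strain in which *Myh2* lay farthest below its line on the index. Without BXD83, as without some other single strains, 0 probe sets passed, so both calls were lost. *Jub* ran from 7.69 in BXD70 through 8.27 to 8.65 in BXD49, close to the background line of 7.94. No probe set passed with the mean of probe sets, with *Acta1* alone or with ranks. None rose under quantile normalization or median centring, so the *Jub* call was lost there too. The count of 2 ranged from 0 to 12 when single strains were left out. After *Jub*, the largest t belonged to *2410137F16Rik*, *Gm14636*, *Ppp1r3d* and *Gucy2e*, none past the threshold. Of these, *2410137F16Rik* (6.65), *Gm14636* (7.54) and *Gucy2e* (7.04) had means within the background.

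The parental arrays differed most in the slow members *Tnni1* and *Tnnc1*. C57BL/6J had an index of 11.97 and DBA/2J of 11.69, both inside the BXD range, from 1 array each and so with no test. Every slow member and 4 of the 5 fast members were lower in DBA/2J. DBA/2J minus C57BL/6J was -0.08 units for *Myh4*, 0.06 for *Myh1*, -0.70 for *Myh2*, -0.19 for *Tnnt3* and -0.45 for *Tnni2*. For the slow genes it was -0.71 for *Myh7*, -0.35 for *Myl2*, -0.31 for *Tnnt1*, -0.85 for *Tnni1* and -0.81 for *Tnnc1*. None reached 1 unit, which 2.44% of all 41155 probe sets did, and the median absolute difference over all was 0.18. *Tnni1* and *Tnnc1* lay beyond the 95th percentile of the absolute difference, 0.77. On average the slow genes differed by -0.61 units and the fast genes by -0.27, beside -0.28 for the index.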

How the data were processed

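BAT of 35 BXD strains, C57BL/6J and DBA/2J was measured on Affymetrix MoGene 2.0 arrays, 1 per strain. The values deposited by the authors are scores: each array was rescaled by them to mean 8 and SD 2, after Affymetrix Expression Console per the labels' processing notes. The background correction and log base are not given in the sources used here. The tests had been planned for log-scale array values, and were run on the scores as they are. Rescaling can stretch or shrink an array, so quantile normalization and median centring were alternatives.

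Of 41345 probe sets, 190 array controls were left out. The brightest probe set stood for a gene. limma 3.58.1 (R 4.3.3; lmFit, eBayes) tested 6 covariates over all probe sets of the 35 strains: the index, *Myh4*, *Myh7*, and *Myh7*, *Myh4* and *Myh2* with the index beside them, with Benjamini-Hochberg adjustment over all probe sets and a threshold of 0.05. Probe sets of the covariates were not tested. Correlations were computed in Python 3.11.15. Arrays have no read depth, so precision rests on how many were run and on the background. p-values measure the spread between strains. Correlation between arrays was from 0.968 to 0.987.

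The members and gene lists were chosen with earlier results of these data known. List genes were found by symbol, *Klhl41* by a RefSeq synonym; of 3 blood genes 2 were found, and 1 other blood gene of the list is not reported here. Named are all members, the 3 genes per list with the largest coefficients and the 5 nearest genes and 5 largest t per myosin. Some genes at the low end of a list or near the threshold are named beside these. On simulated data for 41138 probe sets, 200 of which followed the index by 1.5 SD per SD, limma recovered 100% with 9 false calls, and at 0.5 SD 0.5% with 0 false calls; for *Myh7* at equal index it was 100% with 5 and 4.5% with 0. The simulated noise was independent between probe sets, and the case at equal index held no effect of the index itself. Real fibre genes were correlated and followed the index, so these figures do not give the power or error rate of the fits reported. The alternatives were both parents, the other scalings, the mean of probe sets, *Acta1* alone or the first principal component as index, ranks, strains left out, dim probe sets out and an adjusted p of 0.01; the square of the index was added after the data had been seen.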

Additional observations from a re-analysis of the deposited data

How the results depend on the processing

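The members called against the index (10), *Myh4* (9) and *Myh7* (9) kept their number in all alternatives and with each strain left out in turn. Transcripts called against the index, 809, were 515 at an adjusted p of 0.01.

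At equal index the counts were small and moved. Against *Myh7*, 1 transcript and 1 member became 15 and 2 with *Acta1* alone as the index and 0 and 0 with ranks. Without single strains they ranged from 0 to 2 and from 0 to 1, with 0 without BXD69 or BXD101 and 2 transcripts without BXD85 or BXD97. Against *Myh4*, 2 transcripts and 1 member became 0 and 0 with *Acta1* alone and with ranks, 4 transcripts with dim probe sets left out, and 0 members without the 2 strains farthest from the median. Without single strains they ranged from 1 to 7 and from 0 to 1, with 1 and 0 without BXD56 and more transcripts without BXD43, BXD64, BXD90 or BXD99. Against *Myh2*, 2 transcripts became 6 with both parents, 1 under quantile normalization and 1 under median centring, 0 with the mean of probe sets, with *Acta1* alone, with ranks and at an adjusted p of 0.01, 14 without the 2 farthest strains, 6 without BXD70, 7 with dim probe sets left out and 4 with the square of the index. Without single strains they ranged from 0 to 12. They were 7 without BXD103, 12 without BXD65, and 0 or 1 without BXD43, BXD45, BXD48, BXD50, BXD51, BXD56, BXD62, BXD66, BXD68, BXD69, BXD71, BXD83, BXD84, BXD89, BXD90, BXD96, BXD98, BXD99 or BXD101. The cause was not tested.

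The median r among fast pairs, 0.94, was 0.87 on ranks. With *Acta1* alone regressed out, r between the fast and slow means turned from -0.42 to 0.33, and the median of fast with slow pairs from -0.16 to 0.20. Of 860 values for slopes on the index and ranges of single members, 859 kept their direction and call or moved by less than 1 SD; the exception was the range of *Myh4*, 2.86 units without BXD65. At equal index the members were less stable: of 1269 coefficients, 27 under up to 47 settings, 48 turned sign, 7 lost a call and 1 gained one.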
